A study of Mus musculus with 28 samples.

Results

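The genes described here encode the proteins of the cytosolic ribosome. They were chosen by symbol in the deposited tables of whole kidney and of sorted kidney macrophages: symbols of the Rpl and Rps families, with the paralogues whose names add a, l or x, together with Rplp0, Rplp1, Rplp2 and Rpsa. The rule found 73 genes among the 12954 genes listed in either tissue. In kidney 70 of 12315 listed genes were members, in macrophages 71 of 10523, and 68 were listed in both. Rpl19, Rps23 and Rps27a were listed in macrophages only, and Rpl27 and Rps16 in kidney only. No expression value entered the symbol rule, and every listed member was tested. The rule acts only on listed genes, so ribosomal protein genes listed in neither tissue, such as Rpl13, Rpl24, Rps6 and Rps12, are not covered.

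All groups were female C57BL/6 littermates aged 7 to 9 months, and differed in 2 germline deletions. Wild-type mice carried neither. Rhbdf2-/- mice lack iRhom2, a membrane protein needed for the maturation and activity of the shedding protease ADAM17. Fcgr2b-/- mice lack the inhibitory Fc receptor for immunoglobulin G and are a model of lupus nephritis, and the double mutants carried both deletions. The design asks whether loss of iRhom2 changes expression in the kidney and its macrophages when Fcgr2b is absent. RNA was sequenced from whole perfused kidney (4 libraries per genotype, 16 in all, poly(A) selected) and from CD45+ F4/80hi CD11b+ Ly6G- Ly6C- cells sorted from digested kidney (3 libraries per genotype, 12 in all, cDNA amplified by SMART-Seq v4 from cells sorted into lysis buffer). Nothing in the labels ties each library to a mouse of its own. The p-values therefore speak of the spread between libraries, which may be technical.

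A cytosolic ribosome is built from a small and a large subunit, in which ribosomal RNA is held by the Rps and Rpl proteins in nearly equal amounts. Their mRNAs are among the most abundant of growing cells. Most of these mRNAs start with a C followed by an uninterrupted run of pyrimidines, the terminal oligopyrimidine (TOP) motif, through which mTORC1 and the RNA-binding protein LARP1 set their translation and stability together. Ribosome production rises with cell growth, proliferation and activation, and an imbalance between ribosomal proteins and ribosomal RNA activates p53 through free Rpl5 and Rpl11.

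A run of C or T near the RefSeq start was more frequent in the members than in other genes, and a few are shown because they cover the range of responses described below. Each line holds the 30 bases before and the 30 bases after a RefSeq transcription start (GRCm38.p6), 5′ to 3′ on the strand of the gene, and capitals mark the longest run of at least 8 C or T. Such a run may lie anywhere in the window and may begin with either base, so it is not the TOP motif itself.
Rps26, chr10:128626477-128626536, minus strand: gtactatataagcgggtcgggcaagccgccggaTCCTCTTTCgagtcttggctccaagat
Rps18, chr17:33955636-33955695, minus strand: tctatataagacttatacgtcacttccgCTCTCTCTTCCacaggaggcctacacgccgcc
Rps9, chr7:3704011-3704070, plus strand: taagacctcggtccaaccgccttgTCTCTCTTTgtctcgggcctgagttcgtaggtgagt
Rpl22l1, chr3:28805478-28805537, plus strand: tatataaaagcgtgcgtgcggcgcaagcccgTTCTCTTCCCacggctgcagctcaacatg
Rpl15, chr14:18270957-18271016, minus strand: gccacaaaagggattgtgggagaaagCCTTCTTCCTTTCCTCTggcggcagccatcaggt
Rpl27a, chr7:109519165-109519224, plus strand: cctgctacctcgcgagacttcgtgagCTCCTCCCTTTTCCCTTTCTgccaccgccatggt
Rplp0, chr5:115559437-115559496, plus strand: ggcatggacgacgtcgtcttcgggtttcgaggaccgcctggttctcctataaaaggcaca
Rpl12, chr2:32961682-32961741, plus strand: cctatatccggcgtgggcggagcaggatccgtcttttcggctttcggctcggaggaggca
Rps26, Rps18, Rps9 and Rpl22l1 hold a run and were higher in Fcgr2b-/- kidney than in wild-type kidney. Rpl15 and Rpl27a hold the longer runs of this set. Rpl15 was lower there and Rpl27a did not pass the test. Other members with long runs, Rpl11 (17 bases), Rpl13a (14 bases) and Rpl14 (14 bases), are not shown and were higher there. Rplp0 and Rpl12 hold no such run in these windows and were higher.

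The RefSeq table matched 55 member genes with 66 start sites. A run of at least 8 C or T on the gene's strand lay within 30 bases of 32 of the 66 start sites (48.5%), against 22.9% of the 32851 start sites of all genes and 22.0% of the 12411 start sites of listed genes outside the rule. Such a run held the first base of the transcript or ended just before it at 16 of the 66 sites (24.2%), at 5.32% of all sites and at 5.51% of the sites of listed genes outside the rule. CCGGAAG, the core site of ETS-family factors such as GABP, was searched on both strands in the 300 bases from 250 before to 50 after the start. It was found at 25 of 66 member sites (37.9%), at 8.86% of all sites and at 16.2% of the sites of listed genes outside the rule. Its complement CTTCCGG can overlap a run of C and T. In kidney 23 of 29 members with a run rose between wild-type and Fcgr2b-/- (median log2 difference 0.47), and 23 of 24 members without one (median 0.48). In macrophages 26 of 30 members with a run rose (median 1.03), and 20 of 23 without one (median 1.09). Of all listed genes 29.5% rose in kidney and 24.2% in macrophages. The difference between members with and without a run was not tested. A RefSeq start can differ from the start used in these cells, which was not tested.

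Libraries held 29017955 to 41617801 reads in listed genes in kidney and 30852099 to 34869943 in macrophages. Of these, 211949 to 371093 and 308805 to 791508 fell on members. A count of 3 reads, the limit that a count of 0 allows, stood for 0.0677 to 0.106 CPM (read counts scaled to the size of the library) in kidney and 0.0831 to 0.0989 CPM in macrophages, well below every member mean, and such limits cover counting error only. The gene-level CPM of the targeted genes did not check the labels. Rhbdf2 read 10.8 to 12.3 CPM in Rhbdf2-/- kidney against 12.9 CPM in wild-type, and 13.4 to 15.5 CPM against 16.2 to 25.02 CPM in macrophages. In libraries labelled Fcgr2b-/- it was 25.002 to 37.1 CPM in kidney, above the 9.29 to 19.7 CPM of double mutants. Fcgr2b read 23.4 to 34.2 CPM in Fcgr2b-/- kidney and 20.7 to 41.5 CPM in double mutants, against 29.3 to 35.8 CPM in wild-type. In macrophages it read 539 to 715 CPM in wild-type, 256.2 to 382 CPM in Fcgr2b-/- and 455 to 549.9 CPM in double mutants. Whether the reads that remain come from outside the deleted parts was not tested, and genotype names are those of the labels throughout. The titles of the double mutants name the Rhbdf2 deletion only, and their genotype label was followed. In kidney each genotype had its own sequencing lane, per the labels, and the effects of the lane and of the genotype cannot be told apart. Libraries FcR2bko_594 and iR2ko_65 in kidney (14.5% and 14.3% mitochondrially encoded transcripts against 5.87% to 12.0% in the others) and WT2 and iR2ko_KO3 in macrophages (high in genes of handling stress among wild-type and Rhbdf2-/- libraries) stood apart. Counts are given with them, and below also without them. For the counts without them, the share of all genes called was not computed.

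Members made up a small part of each library. In wild-type kidney they held 0.642%, 0.680%, 0.649% and 0.628% of the CPM. The shares were 0.676%, 0.686%, 0.697% and 0.732% in Rhbdf2-/- kidney, 0.967%, 1.02%, 1.05% and 1.19% in Fcgr2b-/- kidney and 0.757%, 0.753%, 0.749% and 0.697% in double-mutant kidney. All 4 Fcgr2b-/- libraries thus lay above the other 12, with a mean of 1.06% ± 0.094 (SD, n = 4) against 0.650% ± 0.022 in wild-type. In macrophages the shares were 1.00%, 0.989% and 1.04% in wild-type, 1.21%, 1.103% and 1.08% in Rhbdf2-/-, 1.80%, 1.99% and 2.30% in Fcgr2b-/- and 1.35%, 1.36% and 1.18% in double mutants. The 3 Fcgr2b-/- libraries were again above the other 9, and the Rhbdf2-/- and double-mutant libraries were all above the wild-type ones.

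**Figure D1:**
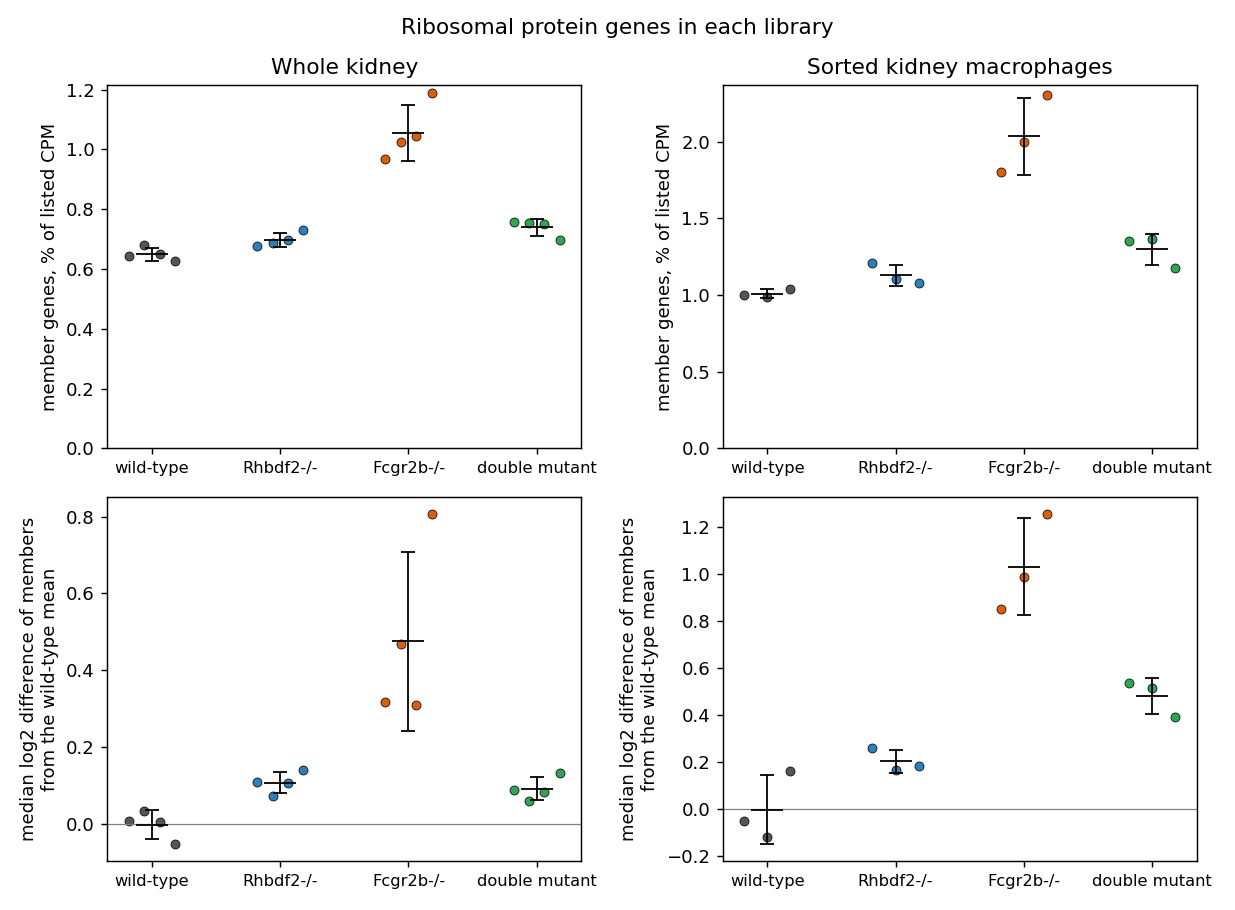
Each point is a library, placed by genotype on the horizontal axis, with the share of the listed CPM held by the members (percent) and the median log2 difference of the members from the wild-type mean on the vertical axes, for kidney and macrophages, with bars for the group mean and SD. In both tissues the Fcgr2b-/- libraries sit highest, at 0.967% to 1.19% in kidney and 1.80% to 2.30% in macrophages.

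Counted mRNA differed widely among proteins that are nearly equal in the particle. In wild-type kidney mean levels ran from 565 CPM for Rpl4, which lines the peptide exit tunnel, to 1.95 CPM for Rpl9, with a median of 41.6 CPM and 13 members below 10 CPM. In wild-type macrophages they ran from 1040 CPM for Rps9 to 2.21 CPM for Rps23, with a median of 49.2 CPM and 10 members below 10 CPM. Per kilobase of exon, high wild-type levels were those of Rpl8 (492 CPM per kb), Rplp1 (417 CPM per kb) and Rpl4 (397 CPM per kb) in kidney, and of Rpl32 (801 CPM per kb) and Rpl4 (482 CPM per kb) in macrophages. The lowest were Rpl9 (0.632 CPM per kb), Rpl5 (0.776 CPM per kb) and Rpl12 (1.07 CPM per kb) in kidney and Rpl21 (1.39 CPM per kb), Rpl12 (1.88 CPM per kb) and Rps23 (2.93 CPM per kb) in macrophages. Between the highest and the lowest mean, wild-type levels differed 290-fold in kidney and 470-fold in macrophages.

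Many ribosomal protein genes have processed pseudogenes that are nearly identical to their mRNA. Of the 50-base windows in the protein-coding transcripts of a member (GENCODE vM21), a median of 65.3% in kidney and 65.04% in macrophages occurred in no other gene, against 99.97% and 99.9% for other listed genes. Windows shared with an annotated pseudogene occurred in 69 of 70 and 70 of 71 members. Reads from such windows cannot be assigned by sequence alone, and how they were counted was not stated, so the level of each member is uncertain. Across members, the wild-type level and the share of unique windows had a Spearman rho of 0.40 in kidney (70 genes) and 0.41 in macrophages (71 genes). The log2 difference between Fcgr2b-/- and wild-type had a rho with that share of -0.04 and 0.07. These are descriptions across genes of the same libraries, which are not independent replicates.

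In Fcgr2b-/- kidney the ribosomal protein genes were higher than in wild-type kidney nearly as a block. Of 70 members 61 rose and 2 fell (limma on log2(CPM + 1), Benjamini-Hochberg adjusted p below 0.05 over all listed genes), where 29.5% of all genes rose and 30.8% fell. The median difference was 0.48 on the log2(CPM + 1) scale, with an interquartile range of 0.37 to 0.57 over the members, and the median over all genes was -0.01. Every Fcgr2b-/- library was above every wild-type library in 58 members, which held for 25.3% of all genes. Against the wild-type mean, the members' median was 0.32, 0.47, 0.31 and 0.81 in the 4 Fcgr2b-/- libraries. The highest was FcR2bko_594, and without it 58 members were called and the median was 0.36. Without both FcR2bko_594 and iR2ko_65, 59 members rose and 2 fell. In whole tissue, more cells of a type and more RNA per cell cannot be told apart.

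The stalk of the large subunit, which recruits elongation factors, is made of Rplp0, Rplp1 and Rplp2. Rplp0 (chr5:115559467-115563727, mm10) read 374, 385, 384 and 339 CPM in wild-type kidney, 411, 375, 396 and 397.8 in Rhbdf2-/-, 460.5, 568, 509.5 and 571 in Fcgr2b-/- and 366.8, 350.7, 361 and 369 in double mutants. All Fcgr2b-/- libraries were above all others, by 0.50 ± 0.07 (SE) on the log2 scale over wild-type (limma adjusted p = 3.99e-05), and double mutants lay 0.54 ± 0.07 below Fcgr2b-/- (log2 difference -0.54, adjusted p = 5.34e-05). Rplp1 read 203, 212, 204 and 206 CPM in wild-type, 218, 219.8, 220.4 and 225 in Rhbdf2-/-, 259.8, 281, 286 and 410.1 in Fcgr2b-/- and 228, 222, 205 and 205 in double mutants. Its rise was 0.56 ± 0.10 (adjusted p = 0.000363), again with no overlap between Fcgr2b-/- and the rest. Rplp2 read 87.97, 94.4, 89.1 and 84.6 CPM in wild-type, 96.8, 92.3, 97.6 and 91.5 in Rhbdf2-/-, 95.2, 117, 106 and 148 in Fcgr2b-/- and 80.9, 77.9, 83.1 and 71.1 in double mutants. It rose by 0.37 ± 0.10 (adjusted p = 0.00572), and its double-mutant libraries were all below the wild-type ones.

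On the small subunit, Rpsa, which also exists as a laminin receptor precursor, read 18.7, 19.2, 19.3 and 18.4 CPM in wild-type kidney, 19.5, 19.8, 19.6 and 21.2 in Rhbdf2-/-, 23.9, 22.6, 25.9 and 31.3 in Fcgr2b-/- and 20.9, 20.4, 21.3 and 23.8 in double mutants. Its rise in Fcgr2b-/- was 0.43 ± 0.08 (limma adjusted p = 0.000485). The double-mutant libraries all lay above wild-type, and the highest of them, iR2ko_65, reached the Fcgr2b-/- range. Both subunits took part: 26 of 27 Rps-type members rose (median 0.52) and none fell, and 35 of 43 Rpl-type members rose (median 0.47) and 2 fell.

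The 6 largest rises in Fcgr2b-/- kidney were those of Rpl10a, Rpl12, Rps19, Rps18, Rpl39 and Rpl3. Rpl10a, the protein of the L1 stalk that helps deacylated tRNA leave, read 6.84, 9.06, 8.04 and 10.997 CPM in wild-type, 9.14, 10.9, 10.1 and 10.2 in Rhbdf2-/-, 13.4, 16.9, 18.3 and 27.02 in Fcgr2b-/- and 9.43, 10.1, 6.89 and 9.82 in double mutants. The rise was 1.01 ± 0.18 (limma adjusted p = 0.00022). Rpl12, at the base of the P stalk, read 2.33, 3.37, 2.58 and 2.92 CPM in wild-type, 2.78, 2.85, 2.84 and 3.28 in Rhbdf2-/-, 5.03, 6.298, 5.901 and 6.004 in Fcgr2b-/- and 3.05, 3.37, 2.37 and 2.75 in double mutants. It rose by 0.85 ± 0.11 (adjusted p = 2.35e-05), from a level of few reads. Rps19, the gene most often mutated in Diamond-Blackfan anaemia, read 59.96, 55.1, 59.3 and 56.5 CPM in wild-type, 65.7, 62.2, 61.6 and 66.3 in Rhbdf2-/-, 81.9, 97.7, 88.6 and 143 in Fcgr2b-/- and 66.8, 60.8, 62.2 and 56.1 in double mutants. It rose by 0.79 ± 0.12 (adjusted p = 8.83e-05). In all 3 of these genes the Fcgr2b-/- libraries stood above all 12 others.

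Rps18, a small-subunit protein, rose by 0.73 ± 0.12 (adjusted p = 0.000175), from 45.6, 50.04, 47.7 and 44.8 CPM in wild-type to 62.3, 83.2, 67.2 and 109 in Fcgr2b-/-, with Rhbdf2-/- at 53.003, 49.9, 53.1 and 49.3 and double mutants at 52.2, 52.3, 54.9 and 58.6. Rpl39, in the wall of the exit tunnel, rose by 0.71 ± 0.12 (adjusted p = 0.000166), from 15.04, 14.7, 14.8 and 13.9 CPM to 21.9, 25.3, 20.5 and 31.6, with Rhbdf2-/- at 15.5, 14.8, 15.7 and 15.7 and double mutants at 17.4, 15.6, 18.6 and 23.2. Rpl3, which lies near the peptidyl transferase centre, had the smallest p of all members (0.70 ± 0.07, limma adjusted p = 1.39e-06). It read 29.1, 27.9, 28.3 and 29.02 CPM in wild-type, 30.4, 32.9, 30.8 and 32.7 in Rhbdf2-/-, 43.6, 48.3, 42.9 and 53.8 in Fcgr2b-/- and 31.3, 31.5, 35.1 and 31.9 in double mutants. In Rps18 and Rpl3 no library of another genotype reached the Fcgr2b-/- range, while in Rpl39 the highest double-mutant library, iR2ko_65, did.

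Among the most abundant members, Rpl4 read 565, 556, 564 and 574 CPM in wild-type kidney and 666, 747, 651 and 876 in Fcgr2b-/-, with Rhbdf2-/- at 617, 633, 594.3 and 633 and double mutants at 616, 611, 598 and 649. Rpl8 read 434, 441, 415 and 408 CPM in wild-type, 464, 442, 456 and 452 in Rhbdf2-/-, 469.8, 557, 516 and 649 in Fcgr2b-/- and 411, 423, 436 and 410.4 in double mutants. Both were therefore highest in the 4 Fcgr2b-/- libraries. Rpl5, which binds Mdm2 when free of the ribosome, read 3.27, 2.704, 2.98 and 3.22 CPM in wild-type, 2.47, 3.56, 2.84 and 3.997 in Rhbdf2-/-, 2.73, 4.24, 3.98 and 4.41 in Fcgr2b-/- and 3.14, 3.39, 3.34 and 4.41 in double mutants, with overlap between all groups. It was 1 of 7 members without a call, with Rpl21, Rpl27a, Rpl35a, Rpl36, Rpl7a and Rps27l.

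The 2 members that fell in Fcgr2b-/- kidney were Rpl15 and Rpl7l1. Rpl15, a large-subunit core protein, read 43.1, 38.99, 41.6 and 42.3 CPM in wild-type, 45.9, 43.2, 42.2 and 44.2 in Rhbdf2-/-, 35.4, 31.98, 30.7 and 30.5 in Fcgr2b-/- and 44.5, 38.9, 36.4 and 51.1 in double mutants. The Fcgr2b-/- libraries were below all others, with a log2 difference of -0.36 ± 0.09 from wild-type (limma adjusted p = 0.00246), and double mutants were 0.39 ± 0.09 above Fcgr2b-/- (adjusted p = 0.00219). Rpl7l1 read 17.99, 14.3, 14.8 and 14.3 CPM in wild-type, 15.3, 15.2, 17.03 and 16.0 in Rhbdf2-/-, 12.5, 14.4, 12.8 and 12.4 in Fcgr2b-/- and 14.8, 14.1, 14.8 and 15.8 in double mutants. Its difference was -0.22 ± 0.08 (adjusted p = 0.024), with overlap between Fcgr2b-/- and wild-type. Scaling each library to the total of the genes outside the rule moved the median of all kidney genes from -0.01 to 0.20. This setting also removed differences in the listed CPM totals, which were 823475 to 985291 in Fcgr2b-/- kidney and 1.03e+06 to 1.07e+06 in wild-type. On that scale 67 members rose and none fell, and Rpl15 stood at -0.15 (adjusted p = 0.146) and Rpl7l1 at -0.01 (adjusted p = 0.89). The share of all genes called on that scale was not computed.

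**Figure D2:**
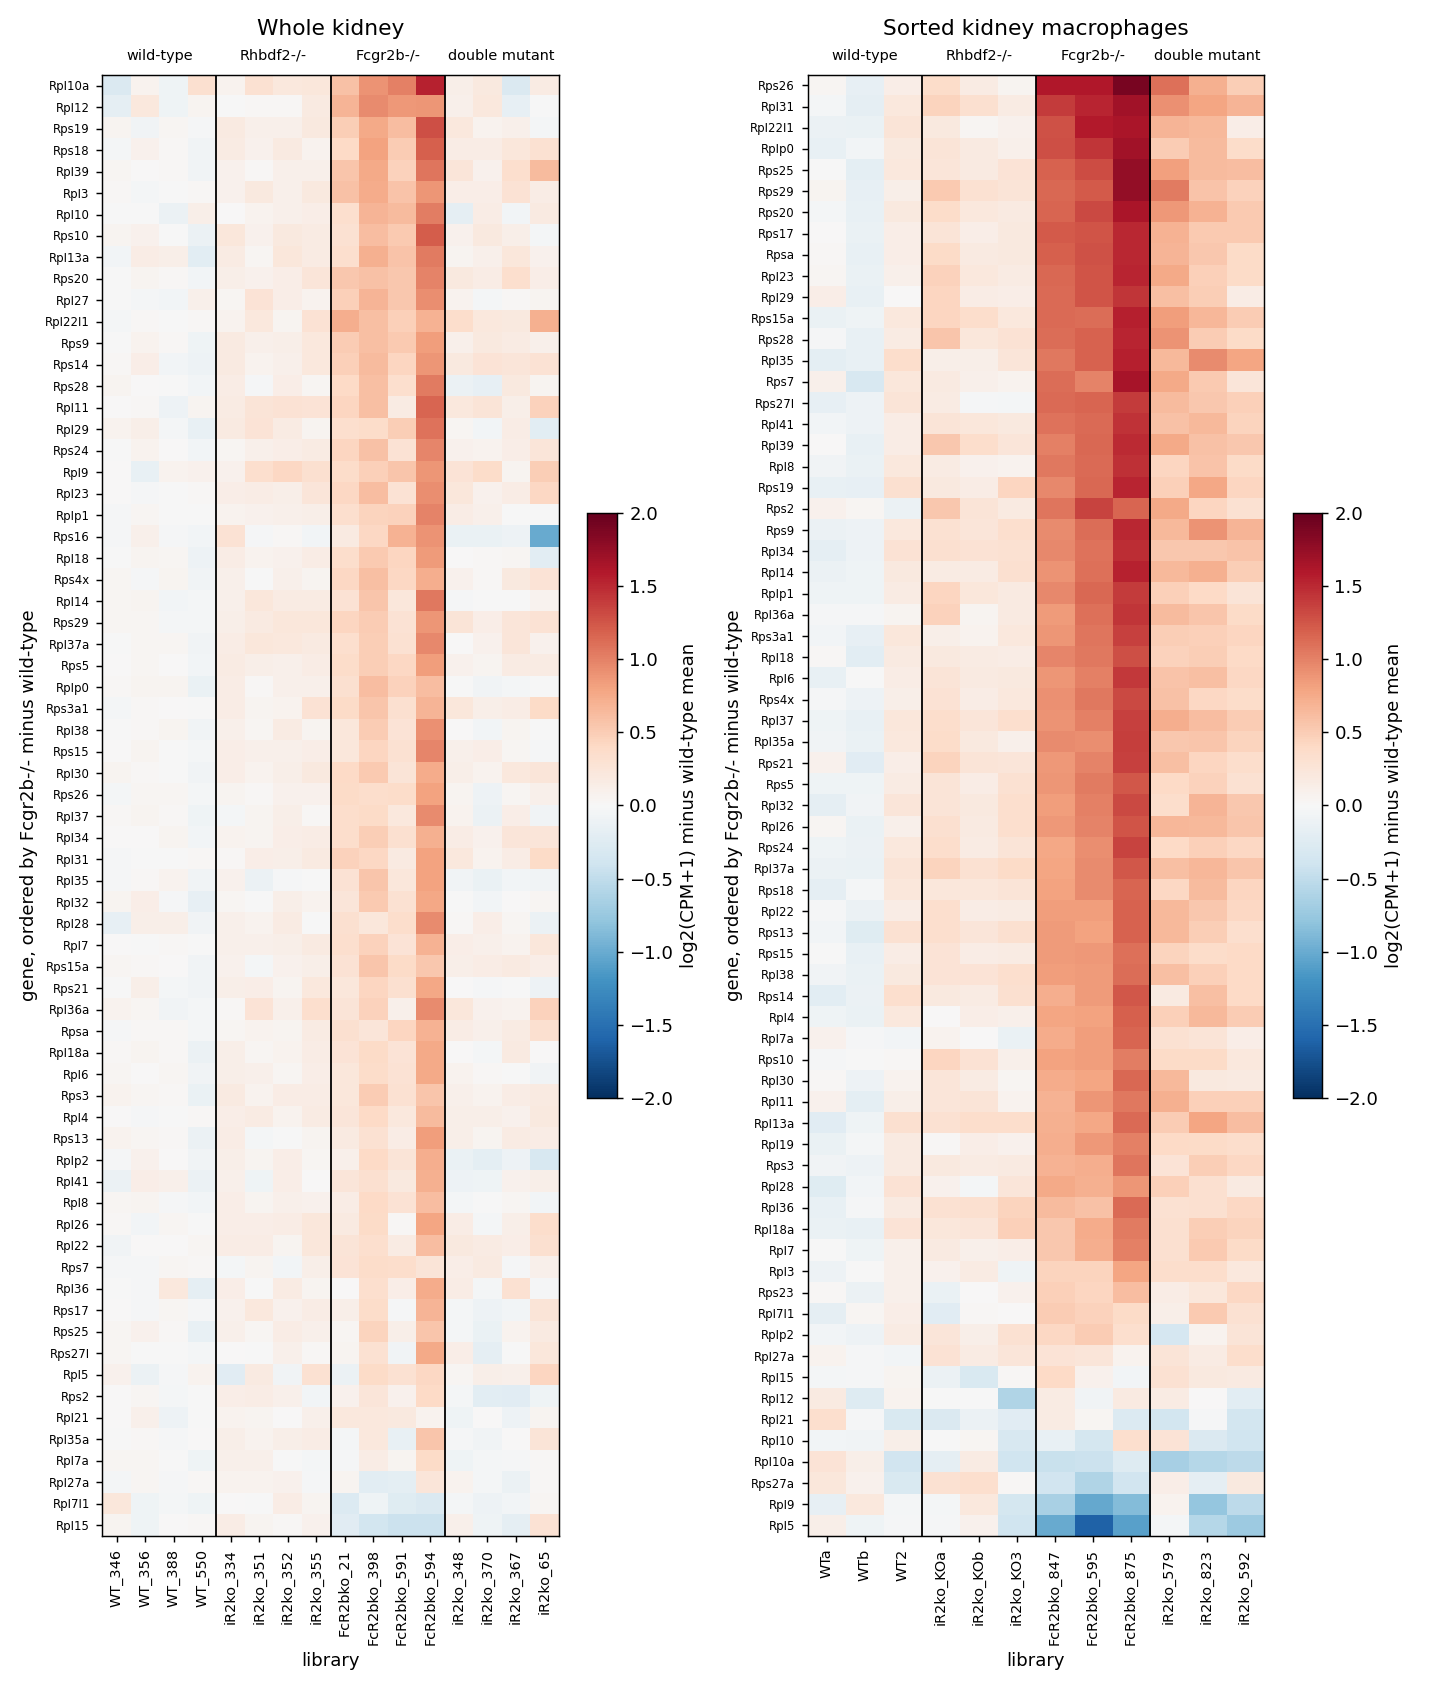
Members are ordered in the vertical direction by their difference between Fcgr2b-/- and wild-type in the tissue, and libraries, grouped by genotype, in the horizontal direction, and colour gives the log2 difference of each member from its wild-type mean in kidney and in macrophages, with 2 members of each tissue not drawn. In the Fcgr2b-/- libraries 61 of 70 members in kidney and 62 of 71 in macrophages passed the test as higher, with Rpl15 and Rpl7l1 in kidney and Rpl5 and Rpl9 in macrophages in the opposite direction.

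Other genes of the ribosome and of its production were described from lists chosen with earlier results of these data known. Of 4 ribosome-linked genes outside the rule 2 rose and 1 fell (median 0.29). Among them, Gnb2l1, which encodes the small-subunit scaffold Rack1, rose from 434 to 485 CPM in wild-type kidney to 625 to 779 CPM in Fcgr2b-/- (0.59 ± 0.07, limma adjusted p = 6.65e-06). Fau, which encodes a small-subunit protein fused to a ubiquitin-like domain, rose by 0.37 ± 0.11 (limma adjusted p = 0.00962), and Rpl36al did not pass (0.20, adjusted p = 0.0911). Of 18 elongation factors and TOP-type partners 12 rose and none fell (median 0.27), among them Npm1, a nucleolar chaperone. Of 44 nucleolar genes of ribosome biogenesis 20 rose and 1 fell (median 0.18), among them Ncl, Nhp2 and Nop58. Of 30 initiation factors 9 rose and 4 fell (median 0.06), and the clearest was Eif6, which keeps free large subunits from joining small ones, at 0.97 ± 0.06 (adjusted p = 5.61e-08). All 4 lists are to be read against 29.5% of all genes higher and 30.8% lower.

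The regulators did not move as a block. Of 18 genes of mTORC1 and TOP control 3 rose and 9 fell (median -0.21), but 7 rose and 2 fell (median 0.01) when libraries were scaled to the genes outside the rule. Mtor itself read 210 to 231 CPM in wild-type kidney, 94.7 to 113 CPM in Fcgr2b-/- and 161 to 188 CPM in double mutants, with a log2 difference of -1.09 ± 0.07 between Fcgr2b-/- and wild-type (adjusted p = 7.61e-08). Of 12 transcription factors of ribosomal protein and biogenesis genes 4 rose and 3 fell (median -0.06). Myc, a transcription factor of ribosome biogenesis genes, rose from 5.48 to 7.05 CPM in wild-type to 29.2 to 39.0 CPM in Fcgr2b-/- kidney (2.15 ± 0.22, adjusted p = 1.70e-06), and read 5.51 to 11.2 CPM in double mutants. Of 12 genes of ribosomal stress and p53 targets 9 rose and none fell (median 0.67), among them Cdkn1a, a cell cycle inhibitor. The proteins of the mitochondrial ribosome differed from those of the cytosol. Of 75 such genes 3 rose and 37 fell in Fcgr2b-/- kidney (median -0.23), but 12 rose and 18 fell (median -0.01) when libraries were scaled to the genes outside the rule.

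**Figure D3:**
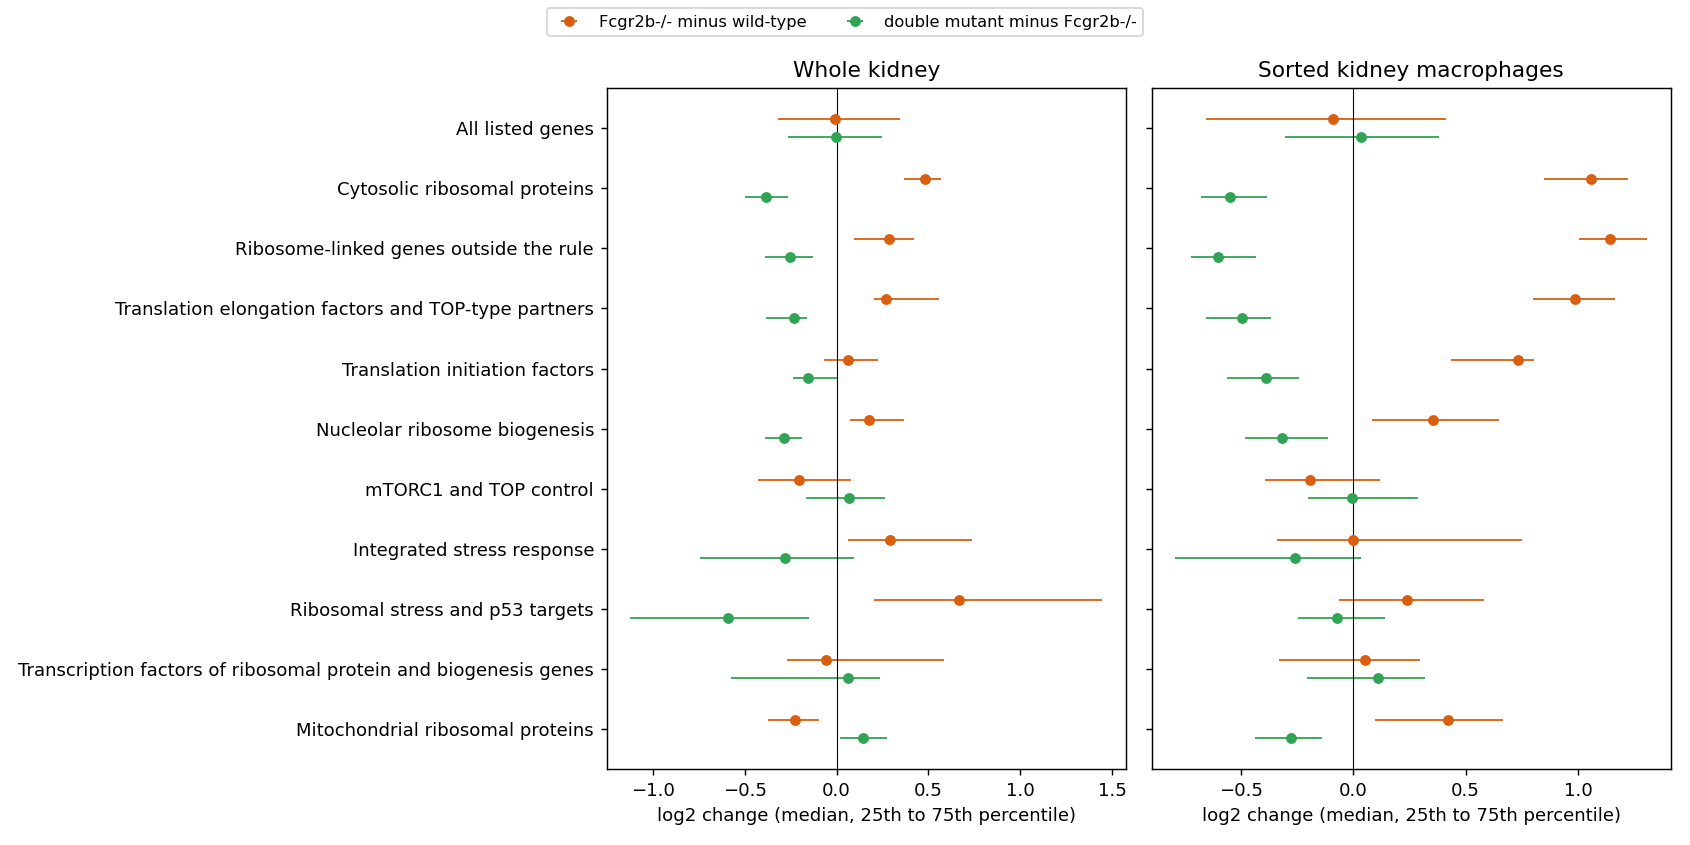
Each point is the median log2 difference (horizontal axis) of a list of genes (vertical axis), with a bar from the lower to the upper quartile of its genes, for Fcgr2b-/- minus wild-type (orange) and double mutant minus Fcgr2b-/- (green) in kidney and macrophages. The cytosolic ribosomal protein genes lie at 0.48 in kidney and 1.06 in macrophages in the first comparison, against -0.01 and -0.09 for all listed genes.

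Cell markers moved with the same genotype in kidney. Of 15 macrophage markers 14 rose and 1 fell, and their sum ran from 317 to 381 CPM in wild-type libraries and from 1158 to 2999 CPM in Fcgr2b-/- libraries. Rhbdf2-/- libraries had sums of 317 to 496 CPM and double mutants of 487 to 2020 CPM, with iR2ko_65 the lowest of the last. All 12 proximal tubule markers fell, from a sum of 29037 to 31849 CPM in wild-type to 5546 to 11161 in Fcgr2b-/-, with 21052 to 23824 in double mutants. Markers of tubular injury (9 of 9), proliferation (9 of 9) and fibroblasts (6 of 6) rose. Of 11 genes of handling stress 7 rose and 2 fell, with sums of 314 to 614 CPM in wild-type and 483 to 612 CPM in Fcgr2b-/-. Of 8 T and NK cell markers 3 rose, of 3 B and plasma cell markers 1 rose, and the single neutrophil marker rose. Of 8 loop and distal tubule markers 7 fell, of 6 collecting duct markers 2 fell and of 5 podocyte markers 1 fell. Of 6 endothelial markers 2 rose and 2 fell. The part of these cell types and states in the higher ribosomal protein mRNA was not tested.

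In double-mutant kidney the members were lower than in Fcgr2b-/- kidney. Of 70 members 53 fell and 1, Rpl15, rose, where 22.8% of all genes fell and 22.5% rose. The median difference was -0.38 against -0.00 over all genes, and all double-mutant libraries were below all Fcgr2b-/- libraries in 48 members (17.2% of all genes). Without FcR2bko_594 and iR2ko_65, 54 fell and 1 rose. This comparison shares the Fcgr2b-/- libraries with the one above and is not independent of it. Against wild-type, 1 member rose and none fell (4.52% and 2.77% of all genes), with a median of 0.07. At an unadjusted p below 0.05 there were 12 of 70 members and 2932 of all 12315 genes. The member that rose was Rpl22l1, and voom on the recovered reads called none. The count was 5 without FcR2bko_594 and iR2ko_65, 7 without FcR2bko_594 alone and 13 when scaled to genes outside the rule. The shares of all genes called in these settings were not computed.

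Part of the other genes of ribosome production and translation also fell from Fcgr2b-/- to double-mutant kidney. Of 44 nucleolar genes 29 fell and none rose (median -0.29), of 18 elongation factors and TOP-type partners 10 fell and none rose (median -0.23), and of 30 initiation factors 13 fell and 2 rose (median -0.15). Of the 12 genes of ribosomal stress and p53 targets 8 fell and none rose (median -0.59). Of 75 mitochondrial ribosomal proteins 19 rose and 4 fell (median 0.14), but 14 rose and 13 fell (median 0.02) when scaled to genes outside the rule. Among markers in this comparison, 10 of 12 proximal tubule markers and 6 of 8 of the loop of Henle and distal tubule rose. Of the markers of tubular injury 8 of 9 fell, of fibroblasts 4 of 6, of handling stress 7 of 11, of proliferation 5 of 9 and of macrophages 2 of 15, and the part of these markers in the lower ribosomal protein mRNA was not tested.

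The largest falls from Fcgr2b-/- to double-mutant kidney were those of Rpl10a (-0.95, adjusted p = 0.000614), Rps16 (-0.89 ± 0.19, adjusted p = 0.00145), Rpl12 (-0.81, adjusted p = 7.12e-05), Rps19 (-0.70, adjusted p = 0.000442), Rpl10 (-0.64 ± 0.13, adjusted p = 0.00094) and Rpl27 (-0.63 ± 0.11, adjusted p = 0.000313), all by limma. Rps16, a small-subunit protein, read 21.1, 23.2, 21.2 and 20.8 CPM in wild-type, 26.5, 21.3, 21.98 and 20.7 in Rhbdf2-/-, 24.4, 28.9, 35.7 and 41.2 in Fcgr2b-/- and 19.6, 19.5, 20.1 and 10.2 in double mutants. Rpl10, which matures the large subunit late in its assembly, read 4.98, 4.98, 4.52 and 5.51 CPM in wild-type, 5.0003, 5.28, 5.45 and 5.56 in Rhbdf2-/-, 6.55, 8.59, 8.29 and 11.2 in Fcgr2b-/- and 4.305, 5.66, 4.75 and 5.79 in double mutants. Rpl27 read 3.04, 2.98, 2.92 and 3.34 CPM in wild-type, 3.18, 3.91, 3.48 and 3.25 in Rhbdf2-/-, 4.64, 5.51, 4.904 and 6.78 in Fcgr2b-/- and 3.27, 2.94, 3.14 and 3.24 in double mutants. The double-mutant libraries of Rpl10 and Rpl27 spread over the wild-type range, and those of Rps16 were all below it. All double-mutant libraries were below all wild-type libraries in 3 members (Rplp2, Rps16 and Rps2), none of which passed the test (11.3% of all genes were lower in that way), and above them in 23 members (6.59% of all genes).

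Without the Fcgr2b deletion, members differed slightly and mostly in 1 direction between Rhbdf2-/- and wild-type kidney, which also differed in lane. Limma called no member in either direction (0% and 0% of all genes). No member had an unadjusted p below 0.05, while 272 of all 12315 genes did. Voom called no member, and none was called without FcR2bko_594 and iR2ko_65. The difference was above 0 in 69 of 70 members, with a median of 0.10. The members' median was 0.11, 0.07, 0.11 and 0.14 in the 4 Rhbdf2-/- libraries against 0.01, 0.03, 0.00 and -0.05 in wild-type. All Rhbdf2-/- libraries were above all wild-type ones in 27 members, where 2.53% of all genes were. The members nearest to a call were Rpl9 (0.29 ± 0.14), Rpl3 (0.14 ± 0.07) and Rps9 (0.15 ± 0.07), each with a limma adjusted p of 1.0. Members share libraries and depth, so the count of equal signs is not a count of independent observations. Between double mutants and Rhbdf2-/- limma and voom called no member (2.32% of all genes rose and 1.18% fell), and the members' median was -0.04. At an unadjusted p below 0.05, 3 of 70 members were lower, against 2834 of all 12315 genes in either direction. Without FcR2bko_594 and iR2ko_65 limma called 2 members, both lower. The 3 lower ones with all libraries were Rps2 (-0.22 ± 0.07, adjusted p = 0.0974), Rplp2 (-0.27 ± 0.10, adjusted p = 0.122) and Rps16 (-0.41 ± 0.19, adjusted p = 0.208).

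The test of the design's question is the interaction, which compares the difference seen with loss of Rhbdf2 with and without Fcgr2b. In kidney the interaction cannot be told apart from the lanes of the genotypes. In kidney it passed the test below 0 for 48 of 70 members and above 0 for none (13.9% and 13.9% of all genes), with a median of -0.50. Passing or not, its sign was negative in 68 members and positive in 2. The largest were Rpl10a (-1.16 ± 0.25, limma adjusted p = 0.0039), Rps16 (-0.95 ± 0.26, adjusted p = 0.0155), Rpl12 (-0.87 ± 0.16, adjusted p = 0.00164), Rps19 (-0.85 ± 0.18, adjusted p = 0.00308), Rpl29 (-0.76 ± 0.19, adjusted p = 0.00964) and Rpl27 (-0.76 ± 0.15, adjusted p = 0.00238). Rpl29 read 17.8, 18.6, 16.4 and 15.3 CPM in wild-type, 19.4, 20.7, 19.1 and 17.8 in Rhbdf2-/-, 21.6, 22.3, 24.4 and 37.04 in Fcgr2b-/- and 17.4, 16.4, 18.9 and 14.5 in double mutants. In these genes the double mutants were lower than Fcgr2b-/- by more than Rhbdf2-/- was higher than wild-type. Without FcR2bko_594 and iR2ko_65 the count was 57.

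In Fcgr2b-/- macrophages too the ribosomal protein genes were higher than in wild-type. Of 71 members 62 rose and 2 fell against wild-type (24.2% and 28.5% of all genes), with a median log2 difference of 1.06, an interquartile range of 0.85 to 1.22, and a median over all genes of -0.09. All Fcgr2b-/- libraries were above all wild-type libraries in 62 members (27% of all genes). The members' median was 0.85, 0.99 and 1.26 in the 3 Fcgr2b-/- libraries and -0.05, -0.12 and 0.16 in the 3 wild-type ones. Of 28 Rps-type members 27 rose and none fell (median 1.15), and of 43 Rpl-type members 35 rose and 2 fell (median 0.94). Without WT2 and iR2ko_KO3, 61 rose and 4 fell.

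Rps26, which lies at the mRNA exit channel, had the largest rise. It read 42.2, 36.8 and 45.005 CPM in wild-type macrophages, 53.6, 46.2 and 42.9 in Rhbdf2-/-, 127, 127 and 156 in Fcgr2b-/- and 89.7, 68.2 and 58.2 in double mutants, a rise of 1.70 ± 0.16 over wild-type (limma adjusted p = 1.36e-05) with no overlap. Rpl31 read 13.5, 12.2 and 16.2 CPM in wild-type, 19.3, 17.5 and 15.7 in Rhbdf2-/-, 38.3, 41.6 and 46.4 in Fcgr2b-/- and 27.2, 24.8 and 22.8 in double mutants (1.53 ± 0.14, adjusted p = 1.1e-05). Rpl22l1, a paralogue of Rpl22, read 9.47, 9.34 and 12.6 CPM in wild-type, 11.99, 10.7 and 11.1 in Rhbdf2-/-, 26.6, 33.04 and 34.4 in Fcgr2b-/- and 17.1, 16.8 and 11.5 in double mutants (1.50 ± 0.18, adjusted p = 4.9e-05). In all 3 genes Fcgr2b-/- was above every other library, and double mutants lay between wild-type and Fcgr2b-/-, with a single Rpl22l1 library (11.5 CPM) inside the wild-type range.

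The stalk protein Rplp0 read 374, 396 and 475 CPM in wild-type macrophages, 491, 468 and 441 in Rhbdf2-/-, 1005, 1112 and 1329.8 in Fcgr2b-/- and 586, 639 and 532 in double mutants (1.47 ± 0.14 for Fcgr2b-/- over wild-type, limma adjusted p = 1.14e-05). Rplp1 read 139.9, 141 and 167 CPM in wild-type, 200.4, 174 and 168 in Rhbdf2-/-, 289, 330.4 and 394 in Fcgr2b-/- and 209, 195 and 179 in double mutants (1.17 ± 0.13, adjusted p = 3.52e-05). Their partner Rplp2 moved less, at 91.9, 88.4 and 107 CPM in wild-type, 113, 103 and 118 in Rhbdf2-/-, 128, 137 and 120.4 in Fcgr2b-/- and 75.3, 100.5 and 114 in double mutants (0.42 ± 0.14, adjusted p = 0.0273). The Fcgr2b-/- libraries were the highest for all 3 stalk genes. Rpsa read 34.7, 30.8 and 37.7 CPM in wild-type, 44.9, 38.7 and 39.4 in Rhbdf2-/-, 79.9, 84.04 and 99.6 in Fcgr2b-/- and 55.5, 50.01 and 45.1 in double mutants (1.33 ± 0.13, adjusted p = 1.47e-05), and the ranges of the 4 genotypes did not overlap. Rps25 rose by 1.41 ± 0.15 (adjusted p = 2.49e-05), from 82.4, 72.6 and 96.3 CPM to 189.9, 206 and 283. Rps29 rose by 1.38 ± 0.18 (adjusted p = 9.35e-05), from 136, 117 and 143 CPM to 293, 309.97 and 446, which completes the 6 largest rises.

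**Figure D4:**
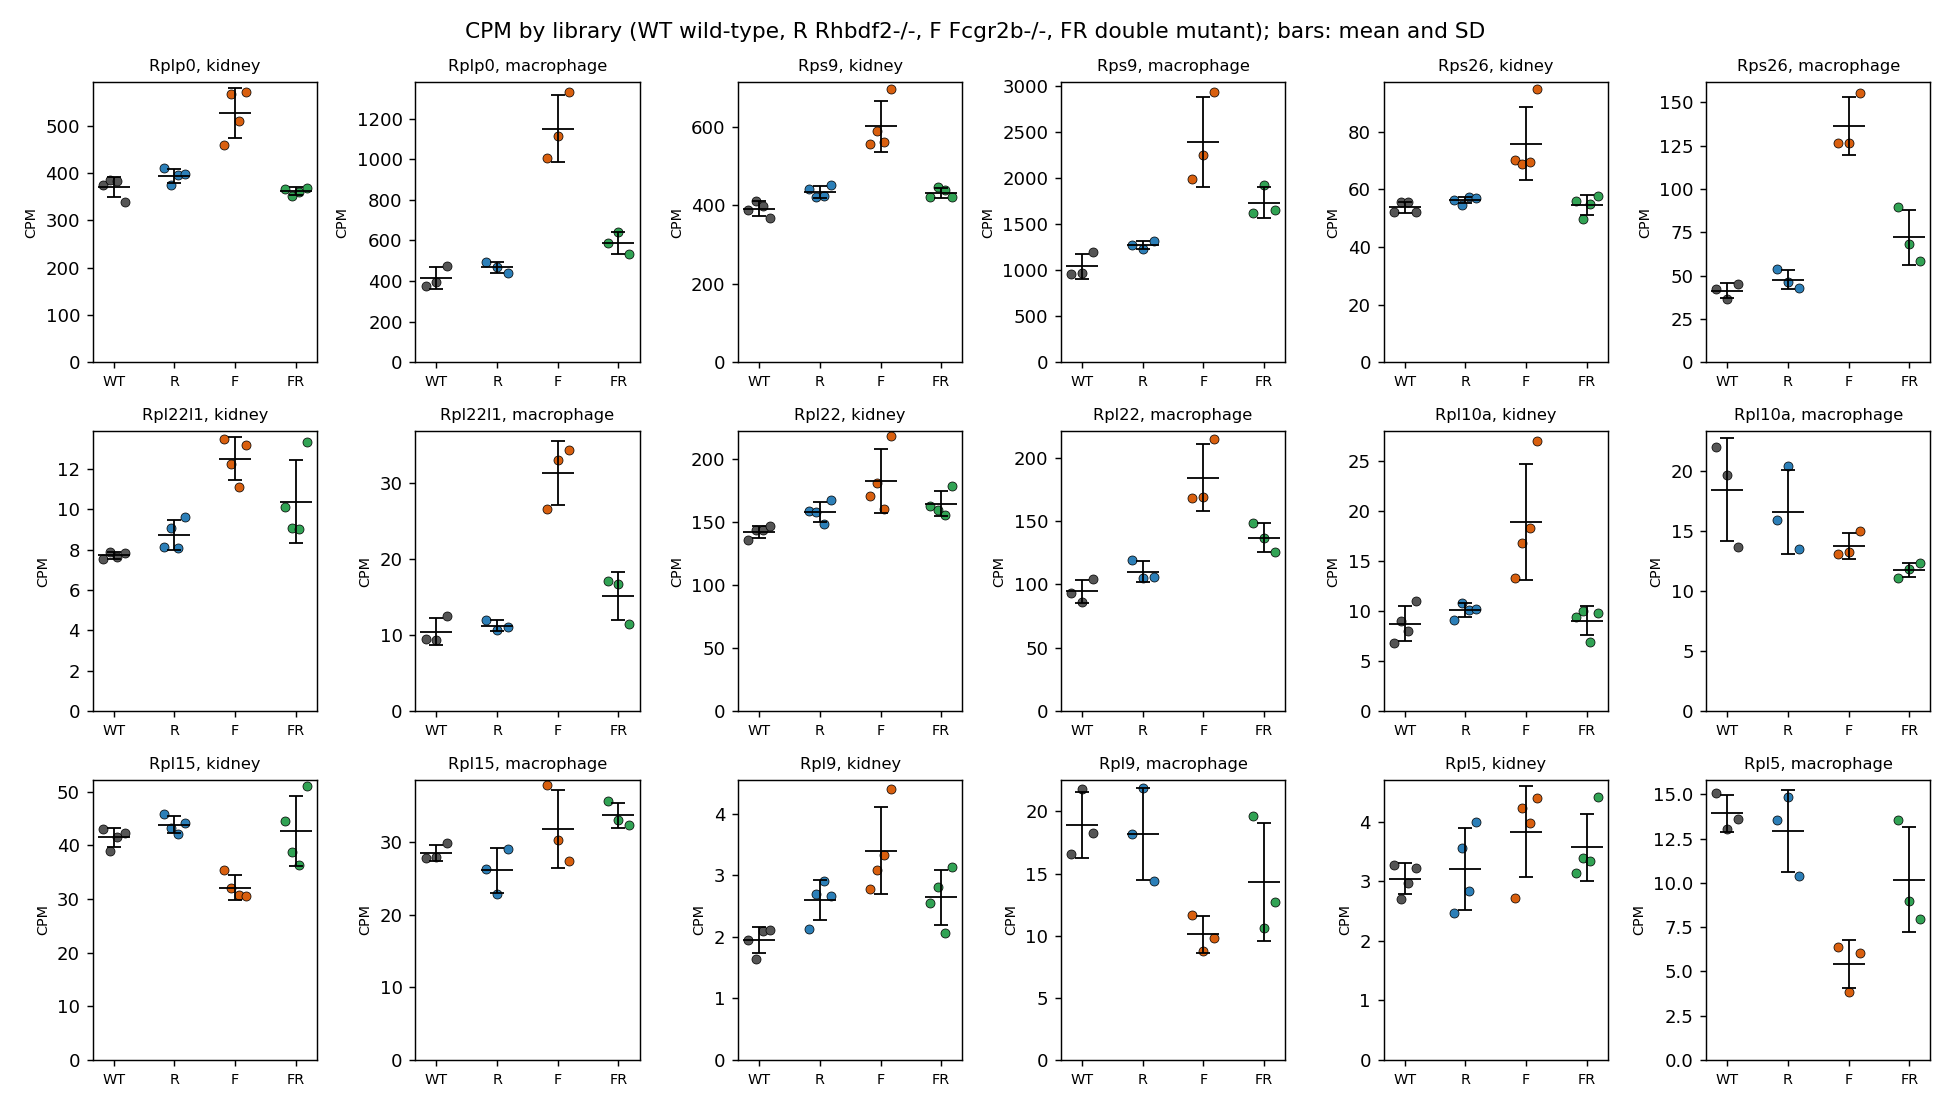
Each panel plots the CPM of 1 member (vertical axis, from 0) in each library by genotype (horizontal axis: WT wild-type, R Rhbdf2-/-, F Fcgr2b-/-, FR double mutant), for kidney and macrophages, with points for libraries and bars for the mean and SD of each group. Rplp0 reaches 460.5 to 571 CPM in Fcgr2b-/- kidney and 1005 to 1329.8 CPM in Fcgr2b-/- macrophages, above all other libraries of the tissue.

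The 2 members that fell in Fcgr2b-/- macrophages were Rpl5 and Rpl9, both of the large subunit. Rpl5 read 15.1, 13.1 and 13.6 CPM in wild-type, 13.6, 14.8 and 10.4 in Rhbdf2-/-, 6.395, 3.85 and 6.01 in Fcgr2b-/- and 13.5, 8.99 and 7.97 in double mutants. The Fcgr2b-/- libraries were below all others, with a log2 difference of -1.24 ± 0.22 from wild-type (limma adjusted p = 0.000723), and double mutants were 0.79 ± 0.22 above them (adjusted p = 0.0193, and 0.0521 when scaled to genes outside the rule). Rpl9 read 16.6, 21.8 and 18.3 CPM in wild-type, 18.2, 21.9 and 14.4 in Rhbdf2-/-, 11.7, 8.76 and 9.84 in Fcgr2b-/- and 19.7, 10.6 and 12.7 in double mutants, with a difference of -0.84 ± 0.22 (adjusted p = 0.00727). In kidney Rpl9 read 1.95, 1.64, 2.09 and 2.11 CPM in wild-type, 2.13, 2.696, 2.898 and 2.65 in Rhbdf2-/-, 2.78, 3.08, 3.32 and 4.41 in Fcgr2b-/- and 2.54, 2.803, 2.07 and 3.14 in double mutants, a rise of 0.57 ± 0.14 (adjusted p = 0.00224). Rpl9 thus differed in opposite directions in the tissues, in all libraries of both groups, and at a kidney level of few reads.

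In macrophages 7 members passed in neither direction: Rpl10, Rpl10a, Rpl12, Rpl15, Rpl21, Rpl27a and Rps27a. Rpl10a, with the largest rise in kidney, read 22.01, 19.7 and 13.7 CPM in wild-type macrophages, 15.9, 20.4 and 13.5 in Rhbdf2-/-, 13.1, 13.2 and 15.03 in Fcgr2b-/- and 11.1, 11.9 and 12.3 in double mutants (-0.37 for Fcgr2b-/- against wild-type, limma adjusted p = 0.111). Rpl12 read 5.64, 3.91 and 5.17 CPM in wild-type and 5.598, 4.604 and 5.65 in Fcgr2b-/-, and Rpl21 read 6.08, 4.55 and 3.54 CPM against 5.28, 4.7999 and 3.65. Rpl10 read 31.2, 30.9 and 35.3 CPM in wild-type and 29.1, 25.1 and 41.2 in Fcgr2b-/-, Rpl15 read 27.9, 27.9 and 29.8 CPM against 37.8, 30.3 and 27.3, and Rpl27a read 21.7, 20.2 and 19.7 CPM against 25.1, 24.5 and 21.6. For Rpl10, Rpl12, Rpl15, Rpl21 and Rpl27a the groups overlapped. Of the 3 members listed in macrophages only, Rpl19 rose from 2.72, 2.97 and 3.63 CPM to 5.80, 6.43 and 7.18 (0.87 ± 0.18, limma adjusted p = 0.00157). Rps23, in the decoding centre, rose from 2.25, 1.94 and 2.45 CPM to 3.46, 3.31 and 3.93 (0.51 ± 0.20, adjusted p = 0.0486), a call at the threshold. Rps27a, made as a fusion with ubiquitin, read 9.32, 8.35 and 6.11 CPM against 5.80, 4.83 and 5.77 (-0.45, adjusted p = 0.0602), with no overlap and no call.

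Double-mutant macrophages lay between wild-type and Fcgr2b-/-. Against Fcgr2b-/-, 46 of 71 members fell and 1, Rpl5, rose (13.8% and 15.8% of all genes), with a median of -0.55 against 0.04 over all genes, and all double-mutant libraries were below all Fcgr2b-/- libraries in 60 members (20.5% of all genes) and above them in 2, Rpl5 and Rps27a (21.2% of all genes). The 6 largest falls were those of Rpl22l1 (-1.01, limma adjusted p = 0.00172), Rplp0 (-0.97, adjusted p = 0.000555), Rps26 (-0.93, adjusted p = 0.00162), Rpl29 (-0.86 ± 0.15, adjusted p = 0.00163), Rplp1 (-0.79, adjusted p = 0.00137) and Rpsa (-0.79, adjusted p = 0.0011). Rpl29 read 27.3, 22.2 and 24.9 CPM in wild-type, 33.8, 27.4 and 27.2 in Rhbdf2-/-, 55.3, 60.4 and 68.2 in Fcgr2b-/- and 37.9, 35.3 and 27.6 in double mutants. The number of members called in this comparison was 32 without FcR2bko_875 and 54 without WT2 and iR2ko_KO3 (52 lower and 2 higher).

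Against wild-type, 42 members were higher in double-mutant macrophages and 1 was lower (9.88% and 8.58% of all genes), with a median of 0.49. Among the largest were Rpl31 (0.80 ± 0.14, limma adjusted p = 0.00469), Rpl35 (0.80 ± 0.17, adjusted p = 0.0111), Rps26 (0.77 ± 0.16, adjusted p = 0.0105), Rps9 (0.74 ± 0.16, adjusted p = 0.0118) and Rps20 (0.70 ± 0.14, adjusted p = 0.0098). Rps9, the most abundant member in macrophages, read 958, 965 and 1198 CPM in wild-type, 1274, 1228 and 1312 in Rhbdf2-/-, 1989, 2246 and 2939 in Fcgr2b-/- and 1616, 1925 and 1654 in double mutants, and these 4 ranges did not overlap. The lower member was Rpl10a (-0.58 ± 0.19, adjusted p = 0.0487).

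This count leaned on single libraries. It was 49 without WT2 and iR2ko_KO3 (48 higher and 1 lower), 3 without WTb, 9 without WTa, 12 without iR2ko_579 and 24 without iR2ko_823, and 22 when scaled to genes outside the rule, although the median stayed between 0.42 and 0.59 when any single library was left out. Against Rhbdf2-/-, 8 members were higher in double mutants and none lower (9.2% and 9.03% of all genes), with a median of 0.27, among them Rpl35 (0.64 ± 0.17, limma adjusted p = 0.0269) and Rps26 (0.57 ± 0.16, adjusted p = 0.033). Rpl35 read 19.6, 20.3 and 29.1 CPM in wild-type, 24.7, 24.5 and 26.9 in Rhbdf2-/-, 48.2, 52.5 and 68.4 in Fcgr2b-/- and 36.2, 44.7 and 39.9 in double mutants. The count was 0 without KOb, KO3 or iR2ko_579, 2 without KOa or iR2ko_823, 3 when scaled to genes outside the rule, 14 without WT2 or FcR2bko_875 and 5 without WT2 and iR2ko_KO3 (4 higher and 1 lower), and the share of members called, with all 12 libraries, is close to that of all genes.

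Loss of Rhbdf2 alone gave no call in macrophages in either direction (0.019% and 0% of all genes), and voom called none. At an unadjusted p below 0.05 there were 10 of 71 members and 339 of all 10523 genes. No member was called without WT2 and iR2ko_KO3, where the median was 0.2987. The difference was above 0 in 61 of 71 members, with a median of 0.22. The members' median was 0.26, 0.17 and 0.18 in the 3 Rhbdf2-/- libraries KOa, KOb and KO3, against -0.05, -0.12 and 0.16 in WTa, WTb and WT2. Genes of handling stress summed to 234 to 303 CPM in KOa and KOb and to 1024 CPM in KO3, against 250 and 311 CPM in WTa and WTb and 1007 CPM in WT2, and their part was not tested. All Rhbdf2-/- libraries were above all wild-type ones in 25 members (6.05% of all genes). The members nearest to a call were Rpl37a (0.38 ± 0.14), Rpl39 (0.38 ± 0.14) and Rpl26 (0.28 ± 0.12), each with a limma adjusted p of 1.0. Rpl37a read 90.9, 90.01 and 119 CPM in wild-type and 136, 122 and 129 in Rhbdf2-/-, and Rpl39 read 31.8, 28.4 and 35.3 CPM against 46.6, 40.96 and 37.7. Rpl26 read 77.9, 69.2 and 81.7 CPM against 95.5, 86.6 and 95.9, and in all 3 genes the groups did not overlap.

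The interaction in macrophages passed the test below 0 for 42 of 71 members and above 0 for none (5.89% and 6.03% of all genes), with a median of -0.77. Passing or not, its sign was negative in 65 members and positive in 6. The largest were Rplp0 (-1.14 ± 0.19, limma adjusted p = 0.00708), Rps26 (-1.12 ± 0.23, adjusted p = 0.0129), Rpl22l1 (-1.12 ± 0.25, adjusted p = 0.0174), Rpl29 (-1.09 ± 0.21, adjusted p = 0.0109), Rplp1 (-1.06 ± 0.19, adjusted p = 0.00784) and Rps29 (-1.05 ± 0.26, adjusted p = 0.0236). The count was 20 without KOa, 24 without WTb, 26 without iR2ko_592 and 44 without WT2 and iR2ko_KO3.

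Some members have a close paralogue that the rule also takes. Rpl22, which has an RNA-binding role beyond the ribosome, and Rpl22l1 both rose in Fcgr2b-/- libraries, Rpl22l1 by more. In kidney Rpl22 read 136, 144, 144 and 147 CPM in wild-type, 159, 158, 149 and 168 in Rhbdf2-/-, 171, 181, 160.3 and 218 in Fcgr2b-/- and 163, 159.9, 156 and 179 in double mutants (0.35 ± 0.08 for Fcgr2b-/- over wild-type, limma adjusted p = 0.00196). Rpl22l1 read 7.52, 7.901, 7.64 and 7.83 CPM in wild-type, 8.15, 9.07, 8.08 and 9.62 in Rhbdf2-/-, 13.5, 12.3, 11.1 and 13.2 in Fcgr2b-/- and 10.1, 9.05, 9.01 and 13.4 in double mutants (0.63 ± 0.11, adjusted p = 0.000157). For Rpl22l1 the double mutants were also above wild-type (0.37 ± 0.11, adjusted p = 0.0495), a call at the threshold in which iR2ko_65 was the highest library. In macrophages Rpl22 read 92.8, 86.3 and 104 CPM in wild-type and 168, 169 and 214 in Fcgr2b-/- (0.95 ± 0.12, adjusted p = 8.91e-05). The difference between the paralogues was not tested.

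Rpl7 rose in both tissues, while its nuclear relative Rpl7l1, which acts in ribosome assembly, did not follow it in kidney. Rpl7 read 196, 193, 198 and 193 CPM in wild-type kidney, 210.1, 209, 211 and 221 in Rhbdf2-/-, 246, 269, 237 and 316 in Fcgr2b-/- and 213, 209, 204 and 229 in double mutants (0.44 ± 0.08, limma adjusted p = 0.000164). In macrophages Rpl7 read 373, 350.9 and 399.8 CPM in wild-type and 543, 619.9 and 753 in Fcgr2b-/- (0.76 ± 0.12, adjusted p = 0.000406), and Rpl7l1 read 16.8, 19.7 and 21.1 CPM against 27.5, 26.7 and 25.4 (0.45 ± 0.14, adjusted p = 0.0177). Rps27l, a p53 target, read 93.8, 90.7, 90.8 and 88.6 CPM in wild-type kidney and 94.4, 113, 87.003 and 155 in Fcgr2b-/-, with overlap and no call. In macrophages it read 54.2, 56.4 and 72.96 CPM in wild-type and 135, 137 and 161 in Fcgr2b-/-, with no overlap, and was called higher. Rps4x, the X-linked form of its family, read 225, 214, 226 and 208 CPM in wild-type kidney and 292, 333, 291 and 360.04 in Fcgr2b-/-, and 260.5, 246 and 287 CPM against 498, 547 and 664 in macrophages. The paralogues Rpl3l, Rpl39l, Rps27, Rps4l and Rpl10l were not analysed here.

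In macrophages the translation genes outside the rule rose with the members. Of 18 elongation factors and TOP-type partners 16 rose and 1 fell in Fcgr2b-/- (median 0.99), of 29 initiation factors 22 rose and 2 fell (median 0.73), and of 43 nucleolar genes 17 rose and 4 fell (median 0.36), where 24.2% of all genes rose and 28.5% fell. Gnb2l1 rose from 484 to 577 CPM in wild-type to 1028 to 1284 CPM in Fcgr2b-/- (1.14, limma). Ncl, the abundant nucleolar protein nucleolin, rose from 325 to 364 CPM to 678 to 777 CPM. Of the mitochondrial ribosomal proteins 39 of 73 rose and 5 fell (median 0.42), and the difference from kidney was not tested. Myc read 84.7 to 113 CPM in wild-type macrophages, 30.3 to 41.6 CPM in Fcgr2b-/- and 28.0 to 63.6 CPM in double mutants, a log2 difference of -1.42 ± 0.26 between Fcgr2b-/- and wild-type (adjusted p = 7.17e-04), while it rose in kidney. Of 11 transcription factors of ribosomal protein and biogenesis genes 1 rose and 2 fell in Fcgr2b-/- macrophages. Of 17 genes of mTORC1 and TOP control 1 rose and 4 fell. From Fcgr2b-/- to double mutants 10 of 18 elongation factors and TOP-type partners (median -0.49), 14 of 29 initiation factors (median -0.39), 11 of 43 nucleolar genes (median -0.32) and 20 of 73 mitochondrial ribosomal proteins (median -0.28) fell, and none of these rose. Of 10 proliferation markers 9 fell in the same comparison, and their part was not tested. None of the comparison lists had a call between Rhbdf2-/- and wild-type in either tissue.

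Marker sums also moved with genotype in macrophages. The 15 macrophage markers, present throughout, summed to 31269 to 41836 CPM in wild-type, 55119 to 69454 CPM in Fcgr2b-/- and, for double mutants, 48216 to 54682 CPM, with 7 higher and 1 lower. All 10 proliferation markers rose, from 128 to 183 CPM to 416 to 824, with 217 to 230 in double mutants. Proximal tubule markers were present at 1199 to 2450 CPM in wild-type and 981 to 1777 in Fcgr2b-/- (1 rose and 9 fell of 12), all 8 loop and distal tubule markers fell, and no podocyte marker was listed. The 6 listed markers of tubular injury summed to 672 to 1620 CPM in wild-type, 1184 to 1648 CPM in Rhbdf2-/-, 8439 to 10209 CPM in Fcgr2b-/- and, for double mutants, 808 to 1516 CPM, and 3 of them rose and 1 fell in Fcgr2b-/-. Of 10 T and NK cell markers 1 rose and 1 fell in Fcgr2b-/-, and 7 rose from Fcgr2b-/- (sums of 89.9 to 157 CPM) to double mutants (285 to 596 CPM). In Fcgr2b-/- 3 of 4 B and plasma cell markers and all 3 collecting duct markers fell, the single fibroblast and the single neutrophil marker rose, and neither of the 2 endothelial markers passed the test. Genes of handling stress summed to 250 and 311 CPM in WTa and WTb, 1007 in WT2, 1024 in iR2ko_KO3, 2096 to 2501 in Fcgr2b-/- and, for double mutants, 409 to 728. Of these 12 genes 4 rose and 1 fell in Fcgr2b-/-, with a median log2 difference of 0.34 and a lower quartile of -0.72. The part of all these markers in the higher ribosomal protein mRNA was not tested.

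Members are short genes, and in macrophages the difference between Fcgr2b-/- and wild-type depended on exon length among other genes too. Over 5 equal bins of exon length from short to long, genes outside the rule had medians of 0.20, 0.01, -0.08, -0.16 and -0.32 in macrophages and 0.06, 0.03, -0.02, -0.04 and -0.09 in kidney. The members' medians of 1.06 and 0.48 lay above all of these, and were 0.89 and 0.49 after a length trend fitted to other genes was removed.

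Most members were called in both tissues, but their order by size differed. Of the 68 members listed in both, 59 rose in kidney and 60 in macrophages between Fcgr2b-/- and wild-type, and 55 rose in both, which is 93.2% of the first and 91.7% of the second. From Fcgr2b-/- to double mutants 51 fell in kidney and 46 in macrophages, and 38 fell in both (74.5% and 82.6%). The interaction was called in 46 and 42, and in both in 29 (63.0% and 69.0%). Most of the 68 members were called in each tissue, so a large overlap follows from the separate counts alone. The share of all genes called in both tissues was not computed. Across the 68 genes the wild-type levels in the tissues had a Spearman rho of 0.86, while the log2 differences between Fcgr2b-/- and wild-type had a rho of 0.07 and a Pearson r of 0.11. These describe genes that share libraries, lengths and pseudogenes. The group mean was highest of the 4 genotypes in Fcgr2b-/- for 67 of 70 members in kidney and 63 of 71 in macrophages, and the double-mutant mean lay between wild-type and Fcgr2b-/- in 54 and 62.

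**Figure D5:**
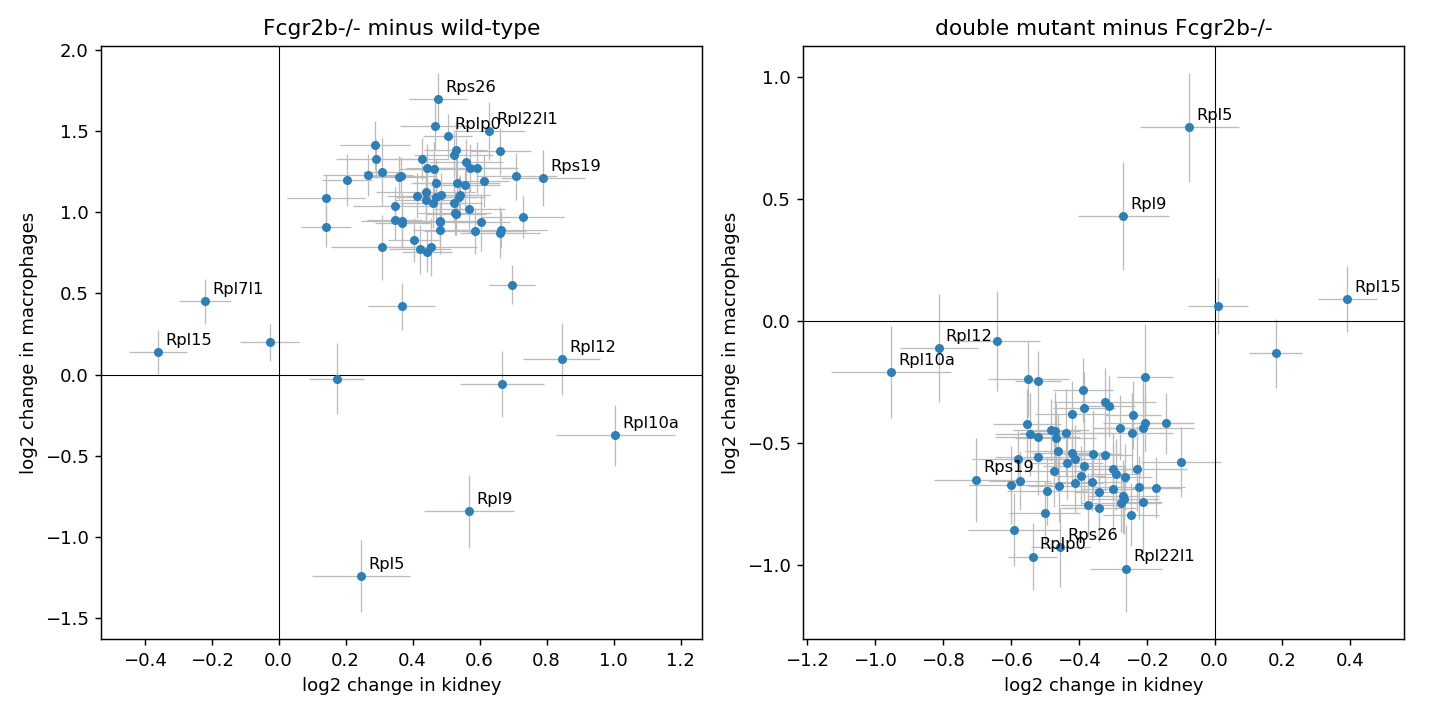
Each point is 1 of the 68 members listed in both tissues, with its log2 difference in kidney on the horizontal axis and in macrophages on the vertical axis and bars of 1 SE, for Fcgr2b-/- against wild-type and for double mutants against Fcgr2b-/-. Most points lie in 1 quadrant (55 rose in both tissues), and their order in kidney says little of their order in macrophages (rho of 0.07).

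At an FDR below 0.05 in the authors' deposited table, 61 members rose and 2 fell between Fcgr2b-/- and wild-type in kidney, and 62 rose and 2 fell in macrophages. For double mutants against wild-type, the authors' deposited table had 1 member higher in kidney and 37 higher in macrophages. It had none for Rhbdf2-/- against wild-type in either tissue. The share of all genes at that FDR in the authors' table was not computed, so these member counts have no background beside them.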

How the data were processed

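RNA sequencing of whole kidney (16 libraries) and sorted kidney macrophages (12 libraries) was used as deposited. Per the file headers, the authors deposited 1 log2 CPM value per gene and library in 1 table per tissue, with log2 fold changes, F statistics (a score), p-values and false discovery rates of their own comparisons. GRCm38 (mm10) is named in the submitters' processing notes, while the aligner, counting rule, annotation and strand setting are not given in the sources used. Low values were whole multiples of the value of 1 read (tolerance 0.1 read), which gave the depth of each library.

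Values were taken back to CPM and fitted as log2(CPM + 1) with limma 3.58.1 (R 4.3.3, trend over mean level), 4 genotypes per tissue in 1 fit, with Benjamini-Hochberg adjustment over all listed genes and a threshold of 0.05. A pseudocount of 1 understates changes of low genes. The tables hold log2 CPM rather than raw counts, so the limma fit planned for that case was used, and count models were not run apart from voom on the recovered reads. Tissues were fitted separately. Groups came from the genotype labels, no pair of libraries was identical, and no per-sample column was left unused. The steps were tested on simulated data.

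The members and lists were chosen with earlier results of these data known. Genes given with values in every library were Rplp0, Rplp1, Rplp2, Rpsa, the paralogue pairs, the 6 largest rises and falls per comparison, the 3 highest and lowest levels per kilobase, members against the majority, and the 3 smallest p where none was called, and other genes by up to 3 calls per list. Rhbdf2, Fcgr2b, Myc, Fau and Rack1 were also named. Some genes these rules name are not reported here. Alternatives were other pseudocounts (0.25 and 5), a mean of at least 1 CPM, fits of the 2 groups alone, median-of-ratios scaling, scaling to genes outside the rule, removal of a length trend, voom, leaving out each library, and others chosen after seeing the data (the deposited scale, leaving out 2 libraries in each tissue, and a replicate block on 4 macrophage libraries). Start site windows were read from a RefSeq table of GRCm38.p6, and window sharing from GENCODE vM21 transcripts. Python 3.11.15, pandas 2.3.3, numpy 2.4.6 and matplotlib 3.10.9 were used.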

Additional observations from a re-analysis of the deposited data

Results flagged for a closer look

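In 6 of 96 sets of 4 kidney libraries that were looked at, 1 library lay far from the other 3, with a gap to the nearest that passed Dixon's critical value for 4 samples, and chance gives about 1 in 20. Rpl7l1 was high in WT_346 at 17.99 CPM, and Rps16 in WT_356 at 23.25 CPM. Rpl12 was high in Rhbdf2-/- library iR2ko_355 at 3.278 CPM. Among double mutants, Rpl3 was high in iR2ko_367 at 35.11 CPM, Rps16 was low in iR2ko_65 at 10.18 CPM, and the share of CPM held by all members was low in iR2ko_65 at 0.6971%.

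The limma interaction term passed the test below 0 in 48 members in kidney (13.9% of all genes) and in 42 in macrophages (5.89% of all genes). In kidney it cannot be told apart from the lanes of the genotypes. Rpl9 differed between Fcgr2b-/- and wild-type by 0.5678 in kidney and -0.842 in macrophages (log2), in opposite directions in every library, and the difference between tissues was not tested. The same held outside the members for Myc (2.1467 and -1.4243), the p53 target Bbc3 (1.5297 and -1.1227), Cd4 (1.1113 and -2.2073) and the keratin gene Krt8 (1.2997 and -1.1857), again in that order of tissues and untested.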

How the results depend on the processing

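The titles share replicate letters only between WTa and KOa and between WTb and KOb in macrophages. Deviations from the group means over the 3 libraries, across 10451 genes, had an r of 0.242 for the a pair and -0.056 for the b pair, so the letters were not taken to pair libraries. With these 4 libraries alone, a setting chosen after seeing the data, 25 members were called higher in Rhbdf2-/- with the letter as a replicate block (4.3% of all genes) and 1 without the block, against 0 with all libraries, and the median was 0.2987 in both. No tested result changed direction, while the members' median between double-mutant and Rhbdf2-/- kidney, with no call, went from -0.04 to 0.06 when scaled to genes outside the rule. Among named single genes, 615 values stayed on their side of the threshold, 24 lost it and 5 gained it under settings other than leaving out 1 library, and 825, 65 and 2 did so when 1 library was left out. The cause of the changes below was not tested. Apart from the replicate block, the share of all genes called under these settings was not computed. In kidney, the number of members called between double mutants and wild-type (1) was 0 with a pseudocount of 5 and with voom, 2 with these groups alone, 13 when scaled to genes outside the rule, 5 with the length trend removed and 5 without FcR2bko_594 and iR2ko_65, and 0 to 7 when 1 library was left out. Between double mutants and Rhbdf2-/- (0) it was 1 with these groups alone, 2 without those 2 libraries and 0 to 2 when 1 library was left out. Between double mutants and Fcgr2b-/- (54) it was 36 with these groups alone. In macrophages, the number called between double mutants and wild-type (43) was 15 with these groups alone, 22 when scaled, 26 with the length trend removed and 3 to 49 when 1 library was left out. Between double mutants and Rhbdf2-/- (8) it was 13, 3 and 4 under the same settings, 5 without WT2 and iR2ko_KO3, and 0 to 14 when 1 library was left out. For the interaction (42) it was 20 to 49 when 1 library was left out. The members' median log2 difference from wild-type in Rhbdf2-/- kidney (0.10) was 0.0661 with the length trend removed, and in double-mutant kidney (0.07) 0.1568 when scaled. In Rhbdf2-/- macrophages (0.22) it was 0.1607 when scaled, 0.2987 without the 2 libraries and 0.166 to 0.2852 when 1 library was left out. In double-mutant macrophages (0.49) it was 0.3378 when scaled, 0.3734 with the length trend removed, 0.5905 without the 2 libraries and 0.4169 to 0.5905 when 1 library was left out. Without the 5 most abundant members, the share of CPM in the order wild-type, Rhbdf2-/-, Fcgr2b-/- and double mutant was 0.442%, 0.4723%, 0.726% and 0.4991% in kidney and 0.6258%, 0.7024%, 1.29% and 0.803% in macrophages. With mitochondrially encoded genes left out of the total it was 0.7303%, 0.7909%, 1.166% and 0.8267% in kidney and 1.038% in wild-type macrophages. The number of libraries and shared sequence limit the precision, and depth limits the members of few reads.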
